A study of Mus musculus with 11 samples.

Results

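Expression of 9 genes was followed in the aging mouse aorta, those of the small GTPases Rasd1 and Rasd2 and of the regulators of G protein signaling (RGS) Rgs2, Rgs3, Rgs4, Rgs5, Rgs10, Rgs12 and Rgs16. Every array probe that carried one of these names was taken, which gave 15 of the 55681 probes and 9 of the 36413 gene names on the arrays. The genes were selected on their measured values in old nitrate treated against old control mice, so their differences between the groups are given as a description, with no test. All animals were male C57BL/6 mice aged 20 months. The 5 nitrate treated mice had drunk water with 1 g/L NaNO3 for 8 weeks, and the 6 controls are labeled as control without an agent. The study's methods name sodium chloride for the controls, whereas the sample labels call these arrays a second use of earlier samples, and the treatment text of every sample, controls included, describes nitrate. RNA came from the descending aorta of each mouse after its surrounding fat had been removed, and each mouse was measured on 1 Agilent array. The study describes 6 replicates per group, and 5 nitrate arrays were analysed here.

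RGS proteins speed up the hydrolysis of GTP by the alpha subunits of heterotrimeric G proteins, and so shorten signals from receptors for angiotensin, endothelin, noradrenaline and other constrictors of the vessel wall. Rgs4, Rgs5 and Rgs16 share an amino-terminal cysteine whose oxidation depends on oxygen and nitric oxide and leads to breakdown of the protein, and Rgs2 is a substrate of the cGMP-dependent kinase that acts downstream of nitric oxide. Rasd1, also called Dexras1, is a Ras-like GTPase induced by dexamethasone and nitrosylated through neuronal nitric oxide synthase, and Rasd2, also called Rhes, is its close relative. Arrays measure transcripts, and neither protein breakdown nor nitrosylation was measured.

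The RGS genes resemble each other in the stretch that encodes the RGS domain, so the probes themselves were compared. Among 97 pairs of probes of different members, aligned without gaps over at least 50 bases, the pair below shared the most bases, 35 of 59 (59.3%). Capitals mark the bases shared by the Rgs2 probe at chr1:145848830-145848889 and the Rgs3 probe at chr4:62363208-62363267, both of them positions in mm9, the build of the array files.
Rgs2: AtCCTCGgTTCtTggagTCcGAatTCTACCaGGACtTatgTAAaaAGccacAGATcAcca
Rgs3: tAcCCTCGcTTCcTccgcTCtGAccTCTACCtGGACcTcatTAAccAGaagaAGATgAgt
No other pair of members reached 50% identity, the next being Rgs2 and Rgs4 at 49.2%.

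Promoters are shown for Rasd2, the gene whose groups did not overlap, and for Rgs4 and Rgs5, which lie side by side on chromosome 1 with 45663 bases between them. They are taken from RefSeq in the build GRCm38.p6, from 250 bases before to 50 bases after the transcript start, at chr8:75213694-75213993 on the plus strand, chr1:169747593-169747892 on the minus strand and chr1:169655251-169655550 on the plus strand. Capitals mark TGACG, the core of the cAMP response element, and TATAAA, the TATA box, on either strand.
Rasd2: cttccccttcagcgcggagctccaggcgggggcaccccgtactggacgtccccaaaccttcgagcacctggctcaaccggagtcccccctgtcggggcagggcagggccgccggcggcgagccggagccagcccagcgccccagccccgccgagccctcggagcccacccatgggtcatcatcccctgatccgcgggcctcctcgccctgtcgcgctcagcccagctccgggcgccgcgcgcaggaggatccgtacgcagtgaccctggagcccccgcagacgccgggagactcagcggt
Rgs4: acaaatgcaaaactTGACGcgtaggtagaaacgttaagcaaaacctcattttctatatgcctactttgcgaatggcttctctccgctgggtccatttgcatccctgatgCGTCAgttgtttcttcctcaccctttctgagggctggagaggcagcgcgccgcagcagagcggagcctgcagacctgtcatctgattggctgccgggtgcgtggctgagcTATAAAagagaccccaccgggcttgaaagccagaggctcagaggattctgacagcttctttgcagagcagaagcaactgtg
Rgs5: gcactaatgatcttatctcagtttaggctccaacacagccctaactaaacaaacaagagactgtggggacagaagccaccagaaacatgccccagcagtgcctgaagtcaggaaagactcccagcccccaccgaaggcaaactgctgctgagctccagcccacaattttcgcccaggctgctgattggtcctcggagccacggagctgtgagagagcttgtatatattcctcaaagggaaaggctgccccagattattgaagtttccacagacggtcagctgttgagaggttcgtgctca
The Rgs4 window held TGACG at 2 places and 1 TATA box, and neither motif was in the Rasd2 or Rgs5 window. A promoter was given for 8 members, with 10 windows in all, and none was given for Rasd1. TGACG was also found at 2 places in the Rgs2 window and once in the second window of Rgs12. Both Rgs3 windows held a TATA box. Over all 32851 promoters of the same length, 20.8% held TGACG and 13.6% held TATAAA. The letters AGAACA, a core of glucocorticoid response elements, was in 19% of all promoters and was found in both Rgs3 windows and the second Rgs12 window. CACGTG, the E-box of the clock factors, was in 7.2% of all promoters, and TTATGNAA, the D-box, in 3.4%, and neither was in any member's window. The windows of Rgs10 (76.0%), Rasd2 (74.7%), Rgs12 (70.3% in the first), Rgs2 (70.0%) and Rgs16 (66.0%) were rich in G and C against a median of 52.7%, whereas Rgs5 (52.3%) and Rgs4 (53.0%) lay close to it.

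The 75th percentile of the processed signal lay between 189 and 254 over the 11 arrays and no spot was saturated. Detection required a spot that Feature Extraction had found and had marked well above background, on 5 or more arrays in one group at least, and 23633 probes met this. The arrays lay on 3 slides, each scanned separately and each holding both groups, but every control array and no nitrate array lay in column 3 of its slide, so column and treatment cannot be told apart. Signal of heart and striated muscle was uneven between the mice, with a log2 sum over 8 marker genes from 13.91 to 15.97 in nitrate treated mice and from 13.02 to 15.39 in controls, in which nitrate treated mouse 4 and control 1 were the highest of their groups.

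Of the 15 member probes 14 were detected, for 8 of the 9 genes. All values below are log2 quantile normalized signals, with the mean ± SD over 5 nitrate treated and 6 control mice, and differences are nitrate minus control with the standard error of the limma fit. Expression of Rasd2 was higher in every nitrate treated mouse than in every control, Rasd1 had the lower mean with overlapping groups, and the detected RGS genes, each by its brightest detected probe, differed by at most 0.24 in either direction. At the limits of the study's methods, an unadjusted P under 0.05 and a fold change above 1.2, 2 member probes were called, 1 of Rasd2 and 1 of Rgs12, both higher, against 9.00% of all detected probes called, 4.16% higher and 4.85% lower. The groups did not overlap in 1 member probe, against 2.75% of all detected probes. Since the same contrast chose the genes, nothing is read from these counts. Over all detected probes the median difference was 0.01 and the median absolute difference was 0.11.

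**Figure D1:**
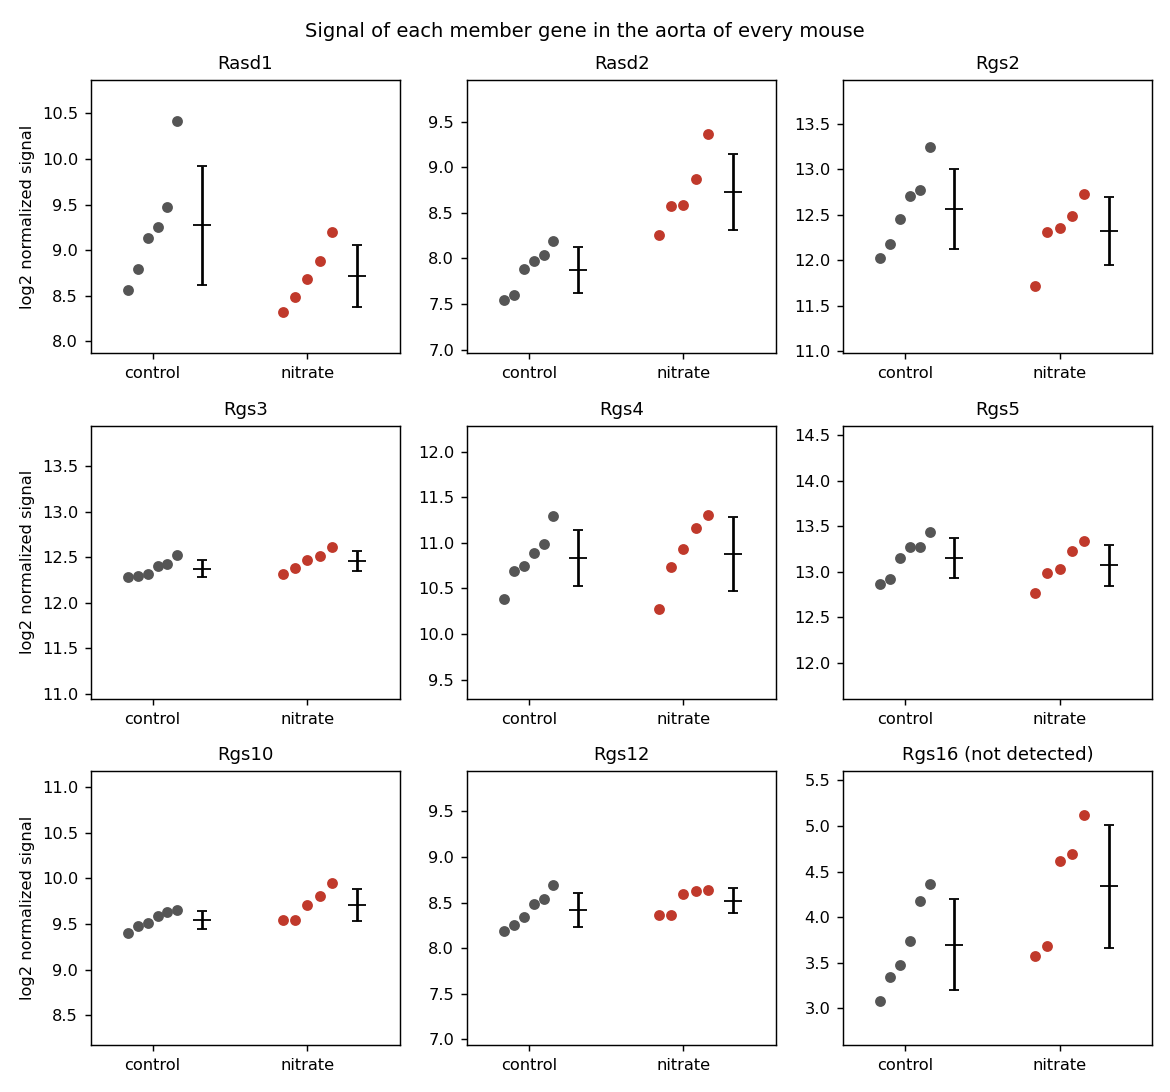
Log2 normalized signal (vertical axis) of each member gene in 6 control mice (grey) and 5 nitrate treated mice (red), with the mean and SD beside the points, for the brightest detected probe of each gene and for the single Rgs16 probe, which was not detected. Every panel spans the same 3 log2 units, and only in Rasd2 do all nitrate treated mice, from 8.26 to 9.37, lie above all controls, from 7.55 to 8.19.

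Rasd2 (Rhes), a GTPase known best from the striatum, where it acts on G protein and mTOR signaling, was measured by 1 probe at chr8:77747953-77748012 (mm9). Its signal was 8.57, 8.87, 8.26, 9.37 and 8.59 in nitrate treated mice 1 to 5, and 7.55 at the lowest, 7.93 at the median and 8.19 at the highest in controls. The lowest nitrate treated mouse lay just above the highest control, and the groups did not overlap. The means were 8.73 ± 0.41 and 7.87 ± 0.25, a difference of 0.86 (SE 0.18) or 1.82-fold. Within slides 1, 2 and 3 the difference was 1.00, 0.18 and 1.16, the smallest of these in slide 2, which held 1 nitrate treated mouse and 2 controls. Nitrate treated mouse 4, with the highest Rasd2 signal, was also the mouse with the highest heart muscle sum, and without it the difference was 0.70. Control 1, with the next highest heart muscle sum, had the lowest Rasd2 signal of the 11 mice. The part of heart muscle in the Rasd2 signal was not tested.

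Rasd1 (Dexras1) was measured by 1 probe at chr11:59777222-59777281 (mm9). Its signal was 8.32, 8.49, 8.69, 8.88 and 9.20 in nitrate treated mice 1 to 5, and 8.56, 9.19 and 10.42 at the lowest, median and highest of the controls. The groups overlapped, with 4 of 5 nitrate treated mice below the control median and 2 of them below every control. The means were 8.72 ± 0.34 and 9.27 ± 0.65, a difference of -0.56 (SE 0.29), or 1.47-fold higher in controls. Control 1 held the highest signal, and without it the difference was -0.33. Control 1 also had the highest brown adipocyte sum of the 11 mice, at 18.26, the lowest smooth muscle sum, at 19.03, and the highest heart muscle sum of the controls. The part of these tissues in the Rasd1 signal was not tested. Within slides 1, 2 and 3 the difference was -1.54, -0.28 and 0.13, and it thus turned its sign in slide 3. The spread of Rasd1 within groups, an SD of 0.535, was above that of 97.3% of all detected probes.

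**Figure D2:**
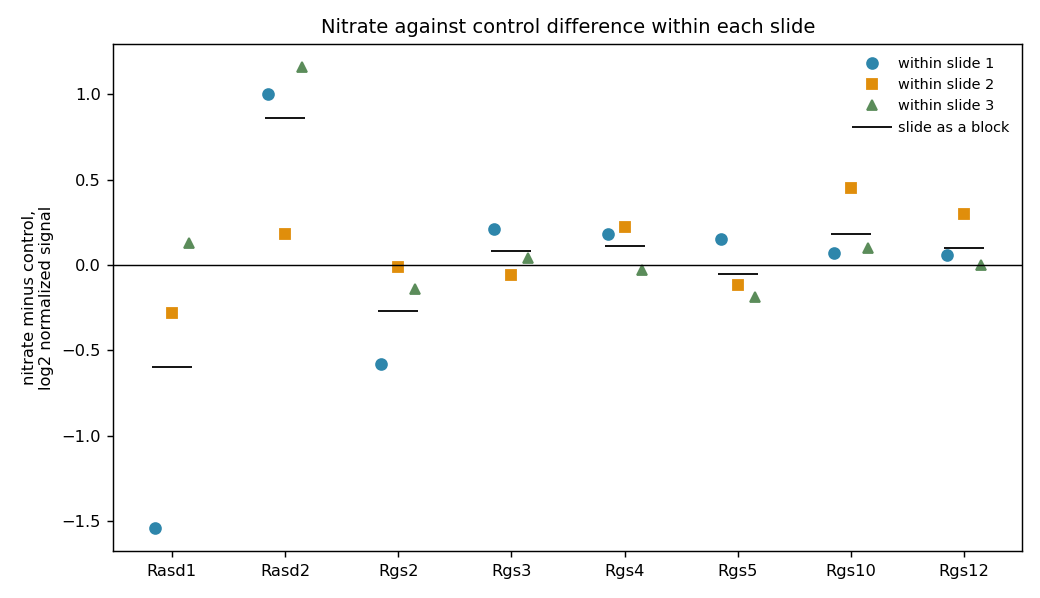
Difference between nitrate treated and control mice (vertical axis, log2 normalized signal) for the brightest detected probe of 8 genes within slide 1 (circles), slide 2 (squares) and slide 3 (triangles), with the value from the fit with slide as a block (bar). Rasd2 lies above 0 in all 3 slides, from 0.18 to 1.16, whereas Rasd1 runs from -1.54 to 0.13.

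Rgs2 acts mainly on Gq, the G protein of most constrictor receptors, and was measured by 2 probes 1603 bases apart. At the probe shown above the signal was 12.49, 12.35, 12.31, 11.72 and 12.73 in nitrate treated mice 1 to 5, and 12.03, 12.57 and 13.24 at the lowest, median and highest of the controls. Most of both groups lay in the same range, with nitrate treated mouse 4 below every control. The difference was -0.24 (SE 0.22), with means of 12.32 ± 0.37 and 12.56 ± 0.44. The second probe, at chr1:145847227-145847286 (mm9), differed by -0.18 (SE 0.25), with means of 6.27 ± 0.54 and 6.45 ± 0.38. Without nitrate treated mouse 4 the difference at the first probe was -0.09, and without control 2 it was -0.11. Both probes had the same sign in all 3 slides, from -0.58 to -0.01 at the first and from -0.37 to -0.07 at the second. Within groups Rgs2 varied widely, with SDs of 0.411 and 0.458, above 92.8% and 95.1% of all detected probes.

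Rgs5, a marker of pericytes and vascular smooth muscle that acts on Gi and Gq, had 1 probe at chr1:171623021-171623080 (mm9). Its signal was 13.34, 13.03, 13.23, 12.99 and 12.77 in nitrate treated mice 1 to 5, and 12.87, 13.21 and 13.44 at the lowest, median and highest of the controls. The groups overlapped almost fully, with means of 13.07 ± 0.22 and 13.15 ± 0.22 and a difference of -0.08 (SE 0.12). The summed signal of 5 other pericyte genes, among them Kcnj8 and Abcc9, ranged from 14.19 to 14.49 in nitrate treated mice and from 14.00 to 14.50 in controls. Of these 5 genes limma called Pdgfrb, which was named after its values were seen. Pdgfrb was higher by 0.27 (SE 0.08, limma adjusted P = 0.219, two-sided exact permutation P = 0.00433) with no overlap between the groups, where 9.00% of all detected probes were called and 2.75% did not overlap. Within slides the Rgs5 difference was 0.15, -0.12 and -0.19, and its sign therefore depended on the slide. Without nitrate treated mouse 5 it was -0.01 over all slides.

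Rgs4, which shares the cysteine-dependent breakdown with Rgs5, had 2 probes. At chr1:171672488-171672547 (mm9) the signal was 11.16, 10.93, 11.30, 10.73 and 10.27 in nitrate treated mice 1 to 5, and 10.38, 10.81 and 11.29 at the lowest, median and highest of the controls. Nitrate treated mice held both the highest and the lowest value, and the difference was 0.05 (SE 0.19), with means of 10.88 ± 0.40 and 10.83 ± 0.31. The second probe, 879 bases away, differed by -0.12 (SE 0.11), with means of 9.68 ± 0.13 and 9.81 ± 0.21. The probes thus differed in sign, each by about its standard error or less, and the first turned to -0.02 without nitrate treated mouse 1, -0.05 without mouse 3 and -0.04 without control 3. It rose to 0.20 without nitrate treated mouse 5 and to 0.14 without control 4.

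Rgs3, which exists in several transcript forms and acts on Gi and Gq, had 3 probes. The brightest, at chr4:62363993-62364052 (mm9), ranged from 12.32 to 12.61 in nitrate treated mice and from 12.28 to 12.52 in controls, and its range of 0.33 over the 11 mice was the narrowest of all member probes. The differences were 0.09 (SE 0.07) at this probe, -0.09 (SE 0.08) at the probe shown above and 0.06 (SE 0.11) at a probe 42431 bases further upstream that the files assign to transcript variant 1. Without nitrate treated mouse 5 the difference at the brightest probe was 0.05. Groups overlapped at all 3 probes, and the 2 probes near the end of the gene had opposite signs.

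Rgs10, a small RGS protein of leukocytes and microglia, had 1 probe at chr7:135517256-135517315 (mm9). Its signal was 9.54, 9.81, 9.95, 9.71 and 9.54 in nitrate treated mice 1 to 5, and 9.40, 9.55 and 9.65 at the lowest, median and highest of the controls. Of the nitrate treated mice 3 lay above every control and the other two lay among them. The means were 9.71 ± 0.18 and 9.54 ± 0.10, a difference of 0.17 (SE 0.09) or 1.12-fold. The sign was the same in all slides, with 0.07, 0.45 and 0.10, and the difference was 0.11 without nitrate treated mouse 3. The summed signal of 6 macrophage markers ranged from 14.90 to 15.33 in nitrate treated mice and from 14.79 to 15.19 in controls. In whole tissue, a change in the number of cells of a type and a change in RNA per cell cannot be told apart.

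Rgs12, a large protein with PDZ and GoLoco domains beside its RGS domain, had 3 probes close together. The called probe, at chr5:35376136-35376194 (mm9), had signals of 5.67, 5.79, 5.55, 5.37 and 5.56 in nitrate treated mice 1 to 5, and 4.49, 5.23 and 5.50 at the lowest, median and highest of the controls. Of the nitrate treated mice 4 lay above every control, and the other one above the control median. The difference was 0.46 (SE 0.17) or 1.38-fold, with means of 5.59 ± 0.15 and 5.13 ± 0.39. The probe was dim, being found and well above background in 5 of 5 nitrate treated mice and in 4 of 6 controls, so that it passed the detection rule only through the group in which it was higher. The brightest probe of the gene, starting 104 bases before the called one, differed by 0.11 (SE 0.10), with means of 8.52 ± 0.14 and 8.42 ± 0.19 and overlapping groups, and by 0.06 without control 2 and 0.07 without control 6. The third probe differed by 0.31 (SE 0.17). Within slides 1, 2 and 3 the called probe differed by 0.38, 0.88 and 0.11.

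Rgs16, which acts on Gi and Gq and shares the amino-terminal cysteine, was measured by a probe at chr1:155592244-155592303 (mm9) that did not pass the detection rule. It was well above background in 3 of 5 nitrate treated mice and in 0 of 6 controls. Its signal was 3.69, 3.57, 4.62, 4.69 and 5.12 in nitrate treated mice 1 to 5 and lay between 3.08 and 4.37 in controls. The means were 4.34 ± 0.67 and 3.70 ± 0.50, and no fold is given because most of these signals were not well above background.

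**Figure D3:**
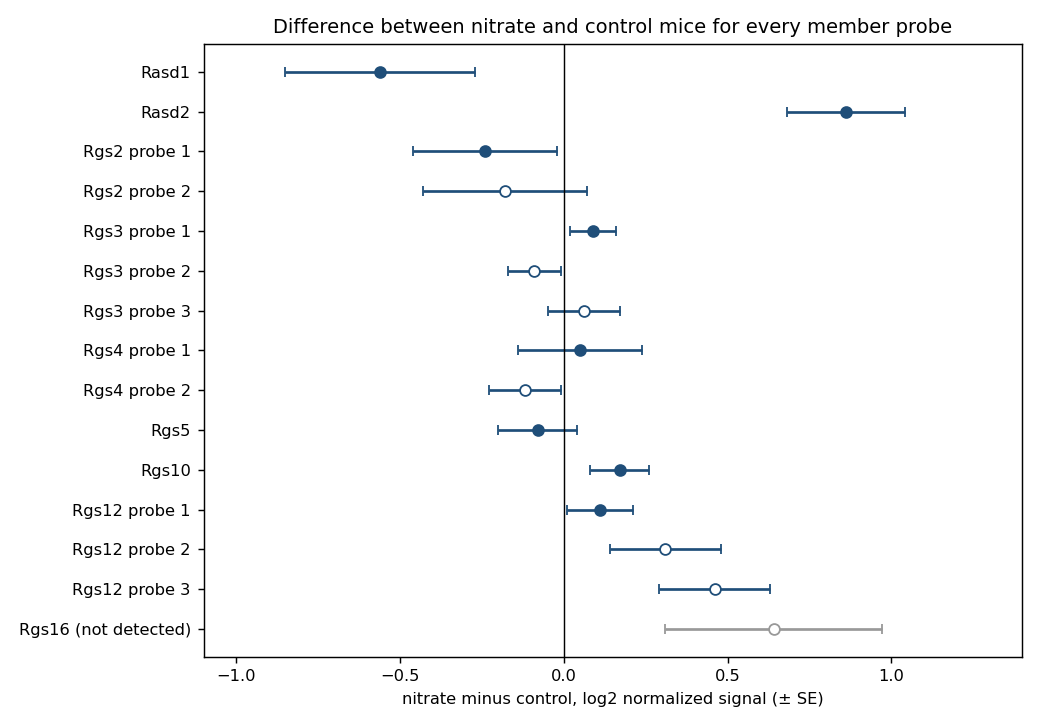
Difference between nitrate treated and control mice (horizontal axis, log2 normalized signal, with the standard error of the fit) for all 15 member probes. Filled points are the brightest detected probe of each gene, open points further probes, and the grey point is the Rgs16 probe that was not detected. Rasd2 at 0.86 and Rasd1 at -0.56 lie farthest from 0 among the detected probes.

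Variation from mouse to mouse within the groups was compared between genes after the group means, which had chosen the members, were removed. Over 36 relations, 28 between genes and 8 between probes of a gene, none had a Benjamini-Hochberg adjusted P under 0.05 in two-sided permutation tests with 100000 resamples of the mice within their groups. The smallest adjusted P was 0.347 for Pearson's r and 0.292 for Spearman's rho, and 4 and 3 relations had an unadjusted P under 0.05. The highest value was that of Rgs4 with its neighbor Rgs5, with r = 0.77 (permutation P = 0.0107, adjusted 0.347) and rho = 0.76 (permutation P = 0.0158, adjusted 0.292) over 11 mice. It was 0.60 with slide means removed as well, and fell to 0.50 without the 2 mice farthest from the median of Rgs4. A slide held only 3 or 4 mice, too few for a value within each slide. The 2 Rgs2 probes correlated at r = 0.69 (permutation P = 0.0263, adjusted 0.347) and rho = 0.75 (permutation P = 0.0162, adjusted 0.292), with r = 0.72 without the 2 farthest mice. The remaining probe pairs of a gene ran from r = -0.58 for the 2 Rgs3 probes near the end of the gene, with rho = -0.66 and adjusted permutation P values of 0.507 and 0.47, to 0.30 for the 2 Rgs4 probes. Between genes r ran from -0.70, for Rgs3 with Rgs4, to 0.77. No member probe had an adjusted P under 0.05 between the 3 slides, against 1.97% of all detected probes. That comparison of slides was chosen after the data were seen.

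**Figure D4:**
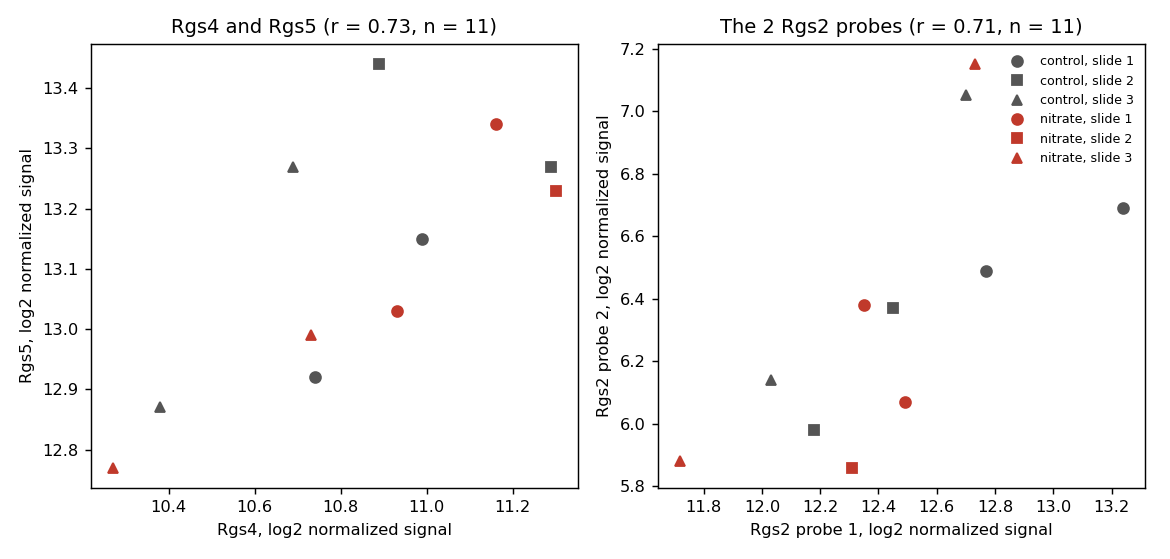
Signal of each of the 11 mice (log2 normalized, both axes) for Rgs4 against Rgs5 on the left and for the 2 Rgs2 probes on the right, with controls in grey, nitrate treated mice in red and the 3 slides as circles, squares and triangles. Mice of both groups are mixed in both plots, with r = 0.73 and r = 0.71 over 11 mice before the group means are removed, and neither relation passed its adjusted test after their removal.

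The probes most like each member over the 11 mice, group difference included, were sought among 15471 detected probes with a gene symbol, and r is given as a description, because arrays share slides and normalization and the highest of many values were taken. A gene with several probes, such as Csf1r, is given by the probe with the highest r. Rasd2 was followed most closely by Nceh1 (0.948), Zfp9 (0.942) and Etv5 (0.923), and Rasd1 by Jmjd7 (0.971), Atad3a (0.968) and Gm3386 (0.942). For Rgs2 these were Fundc1 (0.901), Clptm1l (0.899) and Dtx4 (0.892), for Rgs3 Incenp (0.941), Vps29 (0.936) and Pdcd6ip (0.928), and for Rgs4 Gm13082 (0.954), Hnrnpa0 (0.934) and Lce1a2 (0.933). Rgs5 was followed by Ptpn21 (0.965), Rock1 (0.951) and the diacylglycerol kinase gene Dgkg (0.927). Rgs10 was followed by Krt16 (0.935), the macrophage growth factor receptor gene Csf1r (0.932) and Cd86 (0.921). Rgs12 had the lowest values, with Xpo4 (0.849), Apbb1ip (0.839) and Efhd2 (0.835). With the group means removed, the values for Rasd2 fell to 0.854, 0.855 and 0.745 for Nceh1, Zfp9 and Etv5, so that part of its likeness was the difference between the groups on which it was chosen. Those of the other members then lay between 0.817, for Rgs12 with Apbb1ip, and 0.973, for Rgs10 with Csf1r. No other member was among these genes.

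The RGS genes outside the members gave no calls. Of 14 such genes on the arrays 7 were detected, with 9 probes, of which limma's moderated test called 0, with 0 at an unadjusted P under 0.05 and a smallest adjusted P of 0.40, against 9.00% of all detected probes called. The R7 relatives Rgs7 and Rgs11 differed by 0.05 (SE 0.11) and 0.20 (SE 0.22). The probe of Rgs6, also of the R7 group, passed the detection rule only through the controls. It was well above background in 6 of 6 controls against 3 of 5 nitrate treated mice. Its means, 4.55 ± 0.63 in nitrate treated mice and 4.91 ± 0.59 in controls, are therefore given with no difference. Rgs17, Rgs19 and Rgs20, which act on Gi and Gz, differed by 0.04 (SE 0.23), -0.06 (SE 0.06) and 0.01 (SE 0.13). Rgs18, an RGS gene of platelets, likewise passed only through the controls, with 6 of 6 mice well above background against 4 of 5. Its means were 4.84 ± 0.17 and 4.92 ± 0.45. The Rgs6 and Rgs18 probes are counted among the 9. Rgs1, Rgs8, Rgs9, Rgs13, Rgs14, Rgs21 and Rgs22 were not detected. The median difference over the 9 probes was -0.06, against 0.01 over all detected probes.

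Among 15 proteins with an RGS-like domain, 2 of 16 detected probes were called, both lower and both of Adrbk2, against 9.00% of all detected probes called. Adrbk2 encodes the receptor kinase GRK3. At its brightest probe the means were 8.74 ± 0.31 and 9.17 ± 0.21, with a difference of -0.43 (SE 0.14, limma adjusted P = 0.247, two-sided exact permutation P = 0.0303). Among partners of RGS proteins and proteins with GoLoco motifs, 3 of 12 probes were called, against 9.00% of all detected probes, and 2 of them without Rgs9bp. Gpsm1, which holds Gi in its inactive form, was higher by 0.32 (SE 0.12, limma adjusted P = 0.29, two-sided exact permutation P = 0.0433). The called probe of Rgs9bp, an anchor of Rgs9, passed the detection rule only through the controls, where it was well above background in 5 of 6 mice against 2 of 5 nitrate treated mice. Its means of 4.09 ± 0.88 and 4.85 ± 0.32 are therefore given with no test. Rgs7bp, an anchor of R7 proteins, differed by 0.37 (SE 0.10, limma adjusted P = 0.162, two-sided exact permutation P = 0.00433) at a probe made of A and G alone (100%), and its other two detected probes were not called.

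Among the substrates of RGS proteins, the G protein alpha subunits, limma called 0 of 15 detected probes, against 9.00% of all detected probes. There were 0 at an unadjusted P under 0.05. The largest difference among detected probes was that of Gnal, at 0.29 (SE 0.55). The Gq relative Gna14 did not pass the detection rule, being well above background in 4 of 5 nitrate treated mice and 2 of 6 controls, and its means of 4.35 ± 0.48 and 3.68 ± 0.46 are given with no test. Gnaq, which encodes the alpha subunit of Gq itself, also failed the rule and was not among the 15. Its probe was well above background in 5 of 5 nitrate treated mice and 6 of 6 controls, with means of 9.90 ± 0.09 and 9.83 ± 0.11. Among 21 other Ras-like GTPases 1 of 20 probes was called, or 5% against 9.00%, that of Rras2, which encodes the R-Ras relative TC21. Its means were 7.24 ± 0.06 and 7.55 ± 0.15 and every nitrate treated mouse lay below every control, with a difference of -0.31 (SE 0.08, limma adjusted P = 0.161) and a two-sided exact permutation P of 0.00216, the smallest that 462 divisions of the mice can give. Rit1, named after its values were seen, went the other way, with means of 12.41 ± 0.06 and 12.15 ± 0.11 and every nitrate treated mouse above every control. Its difference was 0.26 (SE 0.07, limma adjusted P = 0.164, two-sided exact permutation P = 0.00433) and stayed under the fold limit. Of all detected probes, 2.75% had groups that did not overlap. Of partners of the Rasd proteins, among them Nos1ap and Acbd3, 0 of 6 probes were called by limma, against 9.00% of all detected probes. There were 0 at an unadjusted P under 0.05, and the brightest probes of Apbb1 and Acbd3 each differed by 0.02 (SE 0.13 and 0.07).

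Of 13 probes for the pathway that breaks down proteins with an amino-terminal cysteine, 1 was called, or 7.69% against 9.00%, that of the ubiquitin ligase Ubr2, with a difference of 0.33 (SE 0.14, limma adjusted P = 0.317, two-sided exact permutation P = 0.0519). Ado, the oxygenase that oxidizes the cysteine, differed by -0.04 (SE 0.07) and the arginyl transferase Ate1 by -0.05 (SE 0.07). Of 8 detected probes for genes that respond to glucocorticoids, as Rasd1 does, 2 were called, against 9.00% of all detected probes. They were those of Fkbp5 at 0.39 (SE 0.16, limma adjusted P = 0.303, two-sided exact permutation P = 0.0498) and Per1 at 0.70 (SE 0.31, limma adjusted P = 0.338, two-sided exact permutation P = 0.0779). Per1 is also one of the clock genes given below, and the part of glucocorticoids in the Rasd1 values was not tested. Of 9 probes for immediate early genes, which share fast induction with Rgs2, limma called 0, against 9.00% of all detected probes. There were 0 at an unadjusted P under 0.05, and the largest difference was -0.44 (SE 0.35) at Fosb.

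Values of other gene groups that the aorta or its surroundings could contribute stand beside those of the members. A list of clock genes, which included the clock output factors Dbp, Tef, Hlf and Nfil3, had 13 detected probes. Of these, 7 were called higher and 3 lower, against 4.16% and 4.85% of all detected probes, the smallest limma adjusted P being 0.0997. Per1, Per2, Per3, Dbp, Tef and Hlf were the genes called higher, by 0.70 to 1.22 on the log2 scale, and Arntl, Npas2 and Nfil3 those called lower, with differences of -1.24 for Arntl and -0.74 for Nfil3. Npas2 passed the detection rule only through the controls, where it was well above background in 6 of 6 mice against 2 of 5 nitrate treated mice, so that its call rests on the group in which it is high and no difference is given for it. The log2 sum over the clock genes ranged from 15.13 to 16.03 in nitrate treated mice and from 14.27 to 15.19 in controls. Of 10 adipocyte probes 6 were called lower, against 4.85% of all detected probes. The summed adipocyte signal ranged from 17.17 to 17.63 in nitrate treated mice and from 17.41 to 18 in controls, with Adipoq at -0.49 (SE 0.11) and Plin1 at -0.24 (SE 0.14). The defining smooth muscle genes Acta2 and Myh11 differed by 0.03 (SE 0.07) and 0.15 (SE 0.14), and 1 of 7 smooth muscle probes was called, against 9.00% of all detected probes. Their summed signal ranged from 19.36 to 19.43 in nitrate treated mice and from 19.03 to 19.42 in controls. The defining endothelial genes Pecam1 and Cdh5 differed by 0.18 (SE 0.13) and -0.20 (SE 0.10), and 1 of 7 endothelial probes was called, as lower, against 4.85%. The fibroblast genes Pdgfra and Dcn differed by 0.12 (SE 0.07) and 0.05 (SE 0.10), and the macrophage genes Cd68 and Emr1 by 0.12 (SE 0.22) and 0.14 (SE 0.13). Limma called 0 of 5 fibroblast and 0 of 10 macrophage probes, against 9.00% of all detected probes, with 1 and 0 at an unadjusted P under 0.05. The part of these values in those of the members was not tested.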

How the data were processed

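Cy3-labeled RNA of each mouse was hybridized to Agilent SurePrint G3 arrays. The authors deposited spot intensities with quality flags from Feature Extraction 10.7.1.1, which subtracts the local background, and a table of log2 values that the methods describe as quantile normalized and centred on the median of all samples. Each of the 11 columns of the deposited log2 table correlated best with the intensities of its own array, and the table served as an alternative.

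Processed intensities were raised to at least 1, taken without control spots and spots flagged as outliers, put on the log2 scale, averaged per probe and quantile normalized. Groups were compared with lmFit and eBayes in limma 3.58.1 (R 4.3.3) over 23633 detected probes, with Benjamini-Hochberg adjustment, and the script was tested on simulated data. Single genes outside the members had two-sided exact permutation tests over 462 divisions of the mice. Correlations over mice were tested with numpy and scipy under Python, with group means removed and mice permuted within groups. Each array is a separate mouse, and the number of arrays limits the precision.

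Members and gene lists were chosen with earlier results of these data known. Named were all members with every probe, all other RGS genes, in pathway lists the called genes and the gene with the largest absolute difference, the first genes of the marker lists reported, and the 3 genes most like each member. Where a gene had several probes, the brightest detected one stood for it, except among the genes most like a member, where the probe with the highest r did. Ado, Ate1, Nos1ap, Acbd3, Pdgfrb, Gna14 and Rit1 fall outside this rule, the last 3 named after their values were seen, as does the TATA box among the motifs, which was added after the sequences were seen. Probe positions are those of the files in mm9, promoters those of RefSeq in GRCm38.p6. Proteins were not used here. As alternatives, the arrays were scaled to the 75th percentile, corrected with normexp, offset by 16 or replaced by the deposited table, the detection rule was dropped or tightened, flagged spots were kept, a trended robust prior was used, slide, replicate number or slide column entered as a block, all probes of a gene were averaged, and every array was left out once.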

Additional observations from a re-analysis of the deposited data

How the results depend on the processing

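The 2 member probes called, those of Rasd2 and Rgs12, became 1 with normexp background correction and 1 when detection was required on all 11 arrays, where the dim Rgs12 probe was lost. With slide as a block there were 3, and with each mouse left out in turn 2 to 3. Rasd1 was called only without nitrate treated mouse 5 or without control 3. The Rgs12 probe that differed by 0.31 was called with slide or replicate number as a block, and without nitrate treated mouse 4 or control 1. Since the same contrast chose the members, nothing is read from these calls. Of all detected probes 2128 were called, which became 1218 with normexp, 3224 with no detection filter, 1370 with slide column as a random block and 1596 to 2424 with a mouse left out. Replicate numbers did not pair the mice, with correlations of same-numbered mice from -0.14 to 0.18 and the own number best in 1 of 5, and with the replicate block 3 member probes and 2433 of all probes were called. The calls among other RGS genes remained 0 under every alternative, and those in pathway lists lay between 13 and 20 with a mouse left out, against 18. The mean of all detected Rgs12 probes gave 0.29, against 0.11 at the brightest. For Rgs4 such a mean turned the sign, at -0.04 against 0.05. It gave 0.02 against 0.09 for Rgs3 and -0.21 against -0.24 for Rgs2. Low signal limits Rgs16 and the called Rgs12 probe. The causes of these changes were not tested.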
